A study of Mus musculus with 12 samples.

Results

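The genes described here are 47 mouse genes of DNA replication and of the passage from G1 into S phase, followed in splenic CD4+ T cells at rest and after activation. They were chosen by name from a list of symbols, and all 47 were found among the 23185 genes with a single probe set and a gene symbol. The set holds 4 genes of origin recognition and helicase loading, the 6 Mcm subunits of the helicase core, 5 genes of helicase activation, 5 of polymerases and primase, 4 of the sliding clamp and its loader, 2 of single-stranded DNA binding, 2 of Okazaki fragment joining, 4 of nucleotide supply and uracil removal, 3 of chromatin behind the fork, 2 of fork checkpoint and licensing control, 7 G1/S cyclins, kinases and phosphatase, and 3 E2F factors.

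The study measured RNA on 12 Mouse Gene 2.0 ST arrays, 3 in each of 4 groups. Activated cells had 24 hours on plate-bound antibody to CD3, a part of the T cell receptor complex, with soluble antibody to CD28, its main costimulatory receptor, and baseline cells (0 hours) were left untreated. The groups were Cre+ activated, Cre- activated, Cre+ baseline and Cre- baseline. Cre+ cells had the genotype Lck-Cre+;Ikzf-/- and are labelled as lacking Ikaros, a zinc finger transcription factor of lymphocytes, whereas Cre- cells had the genotype Lck-Cre-;Ikzf+/+. The Lck promoter drives Cre in the T cell lineage, from the thymus onwards. None of the groups analysed here had Cre and intact Ikaros together, so the presence of Cre and the loss of Ikaros cannot be told apart. None was cultured for 24 hours without the antibodies, so activation and time in culture cannot be told apart either. The labels give no age, sex or strain of the mice and do not say whether replicate arrays were separate animals, so the p-values measure the spread between these samples. Values are log2 expression and are given in the order of the arrays titled 1, 2 and 3 of each group.

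Before S phase, the origin recognition complex, Cdc6 and Cdt1 load the Mcm ring onto DNA, and Cdc45 and the GINS complex then turn it into the active helicase at the fork. D-type cyclins with Cdk4 and Cdk6, and later cyclin E with its kinase partner, phosphorylate the retinoblastoma proteins and so release E2F factors, which drive transcription of most of these genes. Resting CD4+ T cells sit outside the cell cycle, and stimulation of the T cell receptor with costimulation brings them through G1 into S phase before the first division.

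Because E2F factors are the shared regulators of this set in textbook accounts, the promoters of the members were searched for 4 forms of the E2F site, TTTGGCGC, TTTGCCGC, TTTCGCGC and TTTCCCGC, on both strands, with overlapping matches on opposite strands counted separately. The promoters came from RefSeq (build GRCm38.p6) and ran from 250 bases before to 50 bases after each start. Of the 47 members, 41 were matched by Entrez gene number, and 18 of these (43.9%) held a site. A site was present in 704 of all 27025 genes with a promoter sequence (2.6%) and in 575 of 17492 protein-coding ones (3.29%). Of the gene lists described below, a site was present in 5 of 20 matched other replication factors (25%). Among matched mitosis genes it was present in 1 of 20 (5%). Of 11 matched members that rose with activation in both genotypes, 4 held a site before the start, against 8 of the 30 others. In the whole window 6 of the 11 and 12 of the 30 held one, and a difference was not tested. The 250 bases before the start are shown for the 4 members that rose and held a site in that stretch. Cdk6, which rose as well and held none, is shown with them. Capitals mark the matched bases, and the sequences run 5′ to 3′ along the strand of the gene.
Mcm5 (chr8:75109259-75109508, forward strand): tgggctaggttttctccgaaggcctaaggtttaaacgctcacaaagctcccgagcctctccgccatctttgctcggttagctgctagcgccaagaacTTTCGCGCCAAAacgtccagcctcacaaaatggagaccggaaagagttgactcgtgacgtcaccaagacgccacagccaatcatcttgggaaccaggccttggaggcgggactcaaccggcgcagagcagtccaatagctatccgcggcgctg
Mcm6 (chr1:128359706-128359955, reverse strand): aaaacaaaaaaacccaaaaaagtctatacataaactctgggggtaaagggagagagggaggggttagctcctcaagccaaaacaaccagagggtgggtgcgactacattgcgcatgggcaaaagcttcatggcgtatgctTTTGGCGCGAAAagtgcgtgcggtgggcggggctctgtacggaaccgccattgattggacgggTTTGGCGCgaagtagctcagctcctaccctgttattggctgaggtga
Dtl (chr1:191575545-191575794, reverse strand): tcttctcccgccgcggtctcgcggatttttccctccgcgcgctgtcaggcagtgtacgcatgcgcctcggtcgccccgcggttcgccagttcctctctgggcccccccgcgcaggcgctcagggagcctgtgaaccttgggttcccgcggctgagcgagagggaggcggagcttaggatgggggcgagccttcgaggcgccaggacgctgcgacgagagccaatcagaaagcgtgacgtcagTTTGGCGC
E2f3 (chr13:29986064-29986313, reverse strand): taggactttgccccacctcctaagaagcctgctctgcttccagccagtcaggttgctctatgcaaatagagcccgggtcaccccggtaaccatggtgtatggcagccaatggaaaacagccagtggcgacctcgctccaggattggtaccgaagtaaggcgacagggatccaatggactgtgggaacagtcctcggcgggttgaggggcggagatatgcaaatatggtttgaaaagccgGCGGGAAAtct
Cdk6 (chr5:3343643-3343892, forward strand): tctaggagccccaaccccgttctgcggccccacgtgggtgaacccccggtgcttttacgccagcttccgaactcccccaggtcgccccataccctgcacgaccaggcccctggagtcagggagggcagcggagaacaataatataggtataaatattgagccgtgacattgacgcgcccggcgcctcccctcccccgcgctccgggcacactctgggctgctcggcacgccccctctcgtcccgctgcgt
In Mcm5 and Mcm6 a site on one strand overlapped a site on the other, beginning 153 and 149 bases before the start in Mcm5 and 110 and 106 bases before it in Mcm6. Mcm6 held a further site 47 bases before its start, Dtl held 1 beginning 8 bases before it, and E2f3 held 1 beginning 11 bases before it. RefSeq listed another promoter of E2f3, which held none. By role, a site was found in 4 of 5 matched Mcm subunits (Mcm3, Mcm5, Mcm6 and Mcm7) and 3 of 4 genes of origin recognition and loading (Orc1, Cdc6 and Cdt1). It was found in 0 of 4 genes of nucleotide supply and uracil removal and 0 of 2 genes of single-stranded DNA binding. A match is a description of the letters and does not show that a factor binds there.

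Several facts of the whole series bear on the members. Median log2 expression ran from 4.04 to 4.17 over the 12 arrays. Ikzf1, which encodes Ikaros, read 10.14, 9.93 and 9.89 on Cre+ activated arrays, against 10.03, 10.22 and 10.08 on Cre- activated arrays, and 10.66, 10.29 and 10.13 on Cre+ baseline arrays, against 10.54, 10.52 and 10.54 on Cre- baseline arrays. Neither genotype comparison of Ikzf1 passed (limma adjusted p = 0.993 after activation and 0.968 at baseline). Which exons were deleted is not stated in the labels, so this probe set did not check the genotype. Cd4 lay between 10.48 and 11.60 and Cd3e between 10.15 and 11.14 on every array. Of 9 measured CD4 T cell markers, 5 fell and 0 rose with activation in Cre+ cells (median log2 change -0.50), and 2 fell and 0 rose in Cre- cells (-0.42). Markers of B cells, which the samples could also hold, fell with activation in 10 of 13 genes in Cre+ cells and 12 of 13 in Cre- cells, and myeloid markers fell in 9 of 13 and 10 of 13. In these bulk samples, fewer cells of a type and less RNA per cell cannot be told apart.

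Activation raised the level of many members in both genotypes. In Cre+ cells 17 of 47 members were higher after activation and 0 were lower at an adjusted p under 0.05 (limma, Benjamini-Hochberg over 23185 genes), where 10.1% of all genes tested were higher and 10.6% lower. In Cre- cells 16 members were higher and 0 lower, where 9.39% of all genes were higher and 9.10% lower. The share of members called higher was thus several times that of all genes, with no member lower in either comparison even at an unadjusted p under 0.05. The median log2 change of the members was 1.32 in Cre+ cells and 1.33 in Cre- cells, against -0.02 and -0.005 over all genes. Without both activated arrays titled 3 these medians were 0.85 in Cre+ and 0.64 in Cre- cells. The change was positive for 45 members in Cre+ cells and 44 in Cre- cells. The 3 activated arrays all lay above the 3 baseline arrays for 36 members in Cre+ cells (17.3% of all genes) and for 37 in Cre- cells (17.7% of all genes). They lay fully below for 0 members in either genotype (19.3% of all genes in Cre+ and 17.4% in Cre- cells). Both comparisons called 14 members, namely Mcm2, Mcm3, Mcm5, Mcm6, Gins2, Prim1, Pold1, Pole, Ung, Dtl, Ccnd2, Cdk4, Cdk6 and E2f3. Pola2, Fen1 and Uhrf1 passed in Cre+ cells and Rfc4 and Cdc25a in Cre- cells, but for none of these 5 did the difference between the responses pass. Single arrays moved these counts by more than 1.5 times. Shares of all genes are not given for these fits, so whether calls moved for the members alone or for all genes cannot be told. In Cre+ cells the count was 7 when Cre+ activated array 1 or any 1 of the 3 Cre+ baseline arrays was left out. Leaving out Cre+ activated array 2 gave 32, leaving out the Cre+ array titled 3 gave 6, and leaving out the Cre- array titled 3 gave 36. In Cre- cells it was 10 when Cre+ activated array 1 or Cre+ baseline array 1 or 2 was left out, 8 for the Cre- activated array titled 3, and 7, 8 and 6 for Cre- baseline arrays 1, 2 and 3. Mcm2, Mcm5, Ung, Ccnd2, Cdk4 and Cdk6 passed in both genotypes whichever array was left out.

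**Figure D1:**
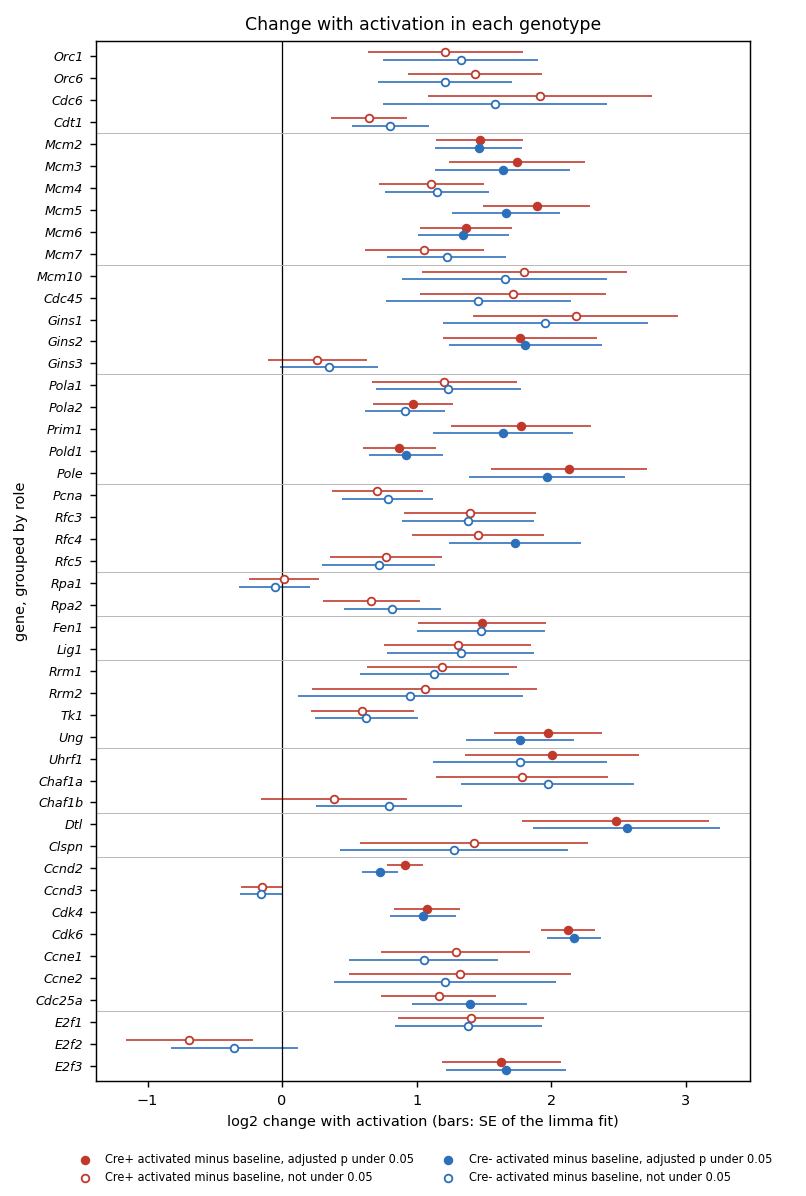
Log2 change with activation for each of the 47 members, in Cre+ cells (red) and Cre- cells (blue), with genes down the page by role. Points are activated minus baseline means of 3 arrays each, bars are the standard error of the limma fit, and filled points passed at an adjusted p under 0.05, as 17 members did in Cre+ cells and 16 in Cre- cells.

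The activated arrays differed from each other in the size of the change. All 47 members had their highest activated value on the array titled 3 in both genotypes, as did 4806 of 23185 genes (20.7%). In 17 members (36.2%) array 3 exceeded both of the others by more than 1 log2 unit in both genotypes, as it did in 184 genes (0.794%). On the Cre+ activated arrays each of the 47 members was lowest on array 2, with array 1 in between. The mean level of the 47 members was 7.46, 6.67 and 8.37 on Cre+ activated arrays 1, 2 and 3 and 6.83, 6.88 and 8.75 on Cre- activated arrays 1, 2 and 3, against 6.17, 6.30 and 6.24 on Cre+ baseline arrays and 6.26, 6.28 and 6.18 on Cre- baseline arrays. The median SD over the members was 0.854 on Cre+ activated and 1.07 on Cre- activated arrays, against 0.116 and 0.109 on Cre+ and Cre- baseline arrays. For all genes the median SD was 0.172 and 0.176 on activated arrays and 0.128 and 0.134 on baseline arrays. The fit shared its estimate of the spread of each gene over all 4 groups. The members' changes were thus tested against this wider spread and the narrower baseline spread together. The sources used here do not say how the cultures behind arrays 1, 2 and 3 differed, and the cause was not tested.

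**Figure D2:**
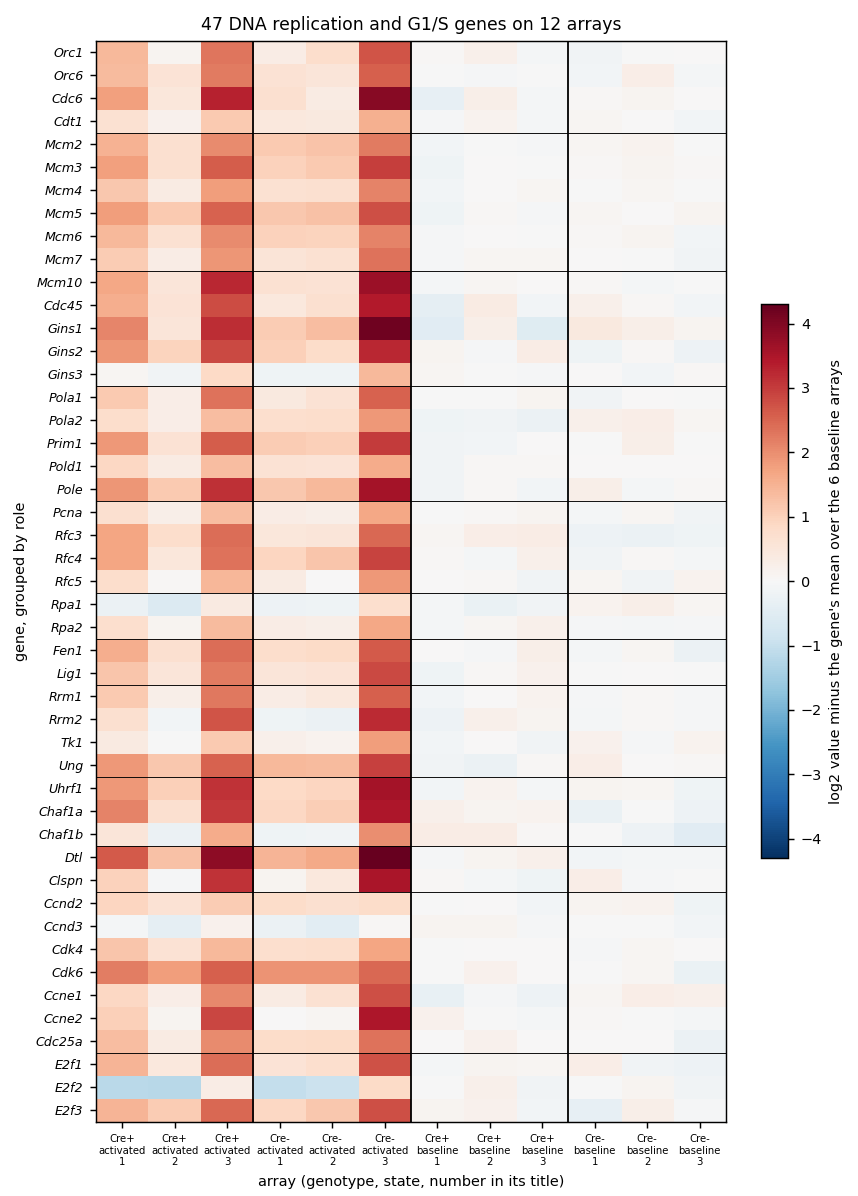
Log2 value of each member on each of the 12 arrays, minus the mean of that gene over the 6 baseline arrays, with red above and blue below that mean. All 47 members were highest on the activated array titled 3 within each genotype, and E2f2, Rpa1 and Ccnd3 were below the baseline mean on activated arrays 1 and 2 of both genotypes.

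Without both activated arrays titled 3, the standard error of E2f2 was smaller (0.14 against 0.47 with all arrays), while that of Ccnd2 was not. More members passed, although the median change was smaller (0.85 in Cre+ and 0.64 in Cre- cells, against 1.32 and 1.33 with all arrays). In that fit 34 members were higher and 1 lower in Cre+ cells, where 10.6% of all genes were higher and 10.7% lower. In Cre- cells 23 members were higher and 1 lower, where 8.43% of all genes were higher and 8.18% lower. E2f2 was the member lower in both. Each activated array on its own can also be set against the baseline arrays of its genotype. On Cre+ activated arrays 1, 2 and 3 the members above all 3 baseline arrays numbered 44, 36 and 47 (30.7%, 32.96% and 33.01% of all genes). On Cre- activated arrays they numbered 39, 39 and 47 (35.83%, 30.54% and 33.12% of all genes). Members below all 3 baseline arrays numbered 2, 5 and 0 in Cre+ cells (38.52%, 32.09% and 37.38% of all genes). In Cre- cells these numbered 5, 5 and 0 (28.6%, 33.99% and 37.65% of all genes).

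The D-type cyclins and their kinases act first after stimulation, and among them were the members with the least spread between activated arrays. Cdk6, a catalytic partner of D-type cyclins, had the smallest adjusted p of the 47 in both genotypes. In Cre+ cells Cdk6 read 9.27, 8.87 and 9.64 after activation, against 7.06, 7.25 and 7.08 at baseline. Cre- arrays gave 8.99, 8.98 and 9.55 after activation, against 7.06, 7.17 and 6.79 at baseline. Arrays 1 and 2 as well as 3 lay far above every baseline array in both genotypes. The change was 4.36-fold in Cre+ cells (log2 2.13, SE 0.20, limma adjusted p = 3.0e-05) and 4.51-fold in Cre- cells (log2 2.17, SE 0.20, adjusted p = 3.3e-05).

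Ccnd2, which encodes cyclin D2, was also higher after activation in both genotypes, with a smaller change. In Cre+ cells Ccnd2 read 11.02, 10.73 and 11.20 after activation, against 10.07, 10.13 and 9.99 at baseline. The Cre- values were 10.89, 10.81 and 10.91 after activation, against 10.23, 10.27 and 9.92 at baseline. The activated and baseline groups did not overlap, and the 3 Cre- activated arrays lay close together. Ccnd2 rose by log2 0.92 in Cre+ cells (SE 0.13, limma adjusted p = 0.000665) and 0.73 in Cre- cells (SE 0.13, adjusted p = 0.00305). Cdk4, the other kinase partner of D-type cyclins, rose by log2 1.08 in Cre+ cells (SE 0.24, limma adjusted p = 0.00896) and 1.05 in Cre- cells (SE 0.24, adjusted p = 0.0112). Its values were 9.91, 9.33 and 10.09 on Cre+ activated arrays and 9.43, 9.46 and 10.40 on Cre- activated arrays, against 8.64 to 8.78 on the 6 baseline arrays. Ccnd3, encoding cyclin D3, did not pass, with a log2 change of -0.15 in Cre+ cells (SE 0.16, limma adjusted p = 0.595) and -0.16 in Cre- cells (SE 0.16, adjusted p = 0.591). Its activated and baseline arrays overlapped in both genotypes.

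Cyclin E, with its kinase partner, acts at the end of G1, and the phosphatase Cdc25a removes inhibitory phosphates from that kinase. In Cre+ cells Ccne2 read 5.35, 4.44 and 7.19 after activation, against 4.48, 4.29 and 4.24 at baseline. In Cre- cells the activated values were 4.33, 4.40 and 7.78, against 4.36, 4.29 and 4.22 at baseline. Ccne2 was thus high on both arrays titled 3, intermediate on Cre+ activated array 1, and close to baseline on the other 3 activated arrays. Most of its baseline values lay near the median of all genes, and whether they were above background was not tested. Its change did not pass (log2 1.32 in Cre+ cells, SE 0.83, limma adjusted p = 0.322, and 1.21 in Cre- cells, SE 0.83, adjusted p = 0.386). Ccne1 read 6.45, 5.84 and 7.63 on Cre+ activated arrays and 5.89, 6.19 and 8.32 on Cre- activated arrays, against 5.23 to 5.50 on Cre+ baseline and 5.64 to 5.85 on Cre- baseline arrays. The activated arrays of Ccne1 lay above baseline in both genotypes, but their spread was wide and the change did not pass (limma adjusted p = 0.134 in Cre+ and 0.242 in Cre- cells). Cdc25a had a log2 change of 1.16 in Cre+ cells (SE 0.43, limma adjusted p = 0.0796) and rose by 1.39 in Cre- cells (SE 0.43, adjusted p = 0.0421).

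Of the 3 E2F members, E2f3 passed in both genotypes. E2f3, an activating E2F factor, read 6.19, 5.82 and 7.20 on Cre+ activated arrays, against 4.82, 4.91 and 4.59 on Cre+ baseline arrays. In Cre- cells it read 5.61, 5.89 and 7.50 after activation, against 4.36, 4.96 and 4.67 at baseline. Both genotypes separated fully from baseline, with log2 changes of 1.63 in Cre+ cells and 1.67 in Cre- cells (SE 0.45 each, limma adjusted p = 0.0225 and 0.0225). E2f1, the founding activator of the family, lay above baseline on every activated array and did not pass (log2 1.40 in Cre+ and 1.39 in Cre- cells, limma adjusted p = 0.0961 and 0.108).

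E2f2, the remaining activator, ran the other way on arrays 1 and 2. In Cre+ cells E2f2 read 4.86, 4.81 and 6.34 after activation, against 5.98, 6.24 and 5.86 at baseline. On Cre- arrays it read 5.0, 5.09 and 6.84 after activation, against 6.01, 6.13 and 5.85 at baseline. Arrays 1 and 2 of both genotypes lay below every baseline array, and both arrays titled 3 lay above them. With all arrays the change did not pass (log2 -0.69 in Cre+ cells, SE 0.47, limma adjusted p = 0.376, and -0.35 in Cre- cells, SE 0.47, adjusted p = 0.704). Without both activated arrays titled 3, E2f2 fell in both genotypes (log2 -1.19 in Cre+ cells, limma adjusted p = 0.000137, and -0.95 in Cre- cells, adjusted p = 0.000695).

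**Figure D3:**
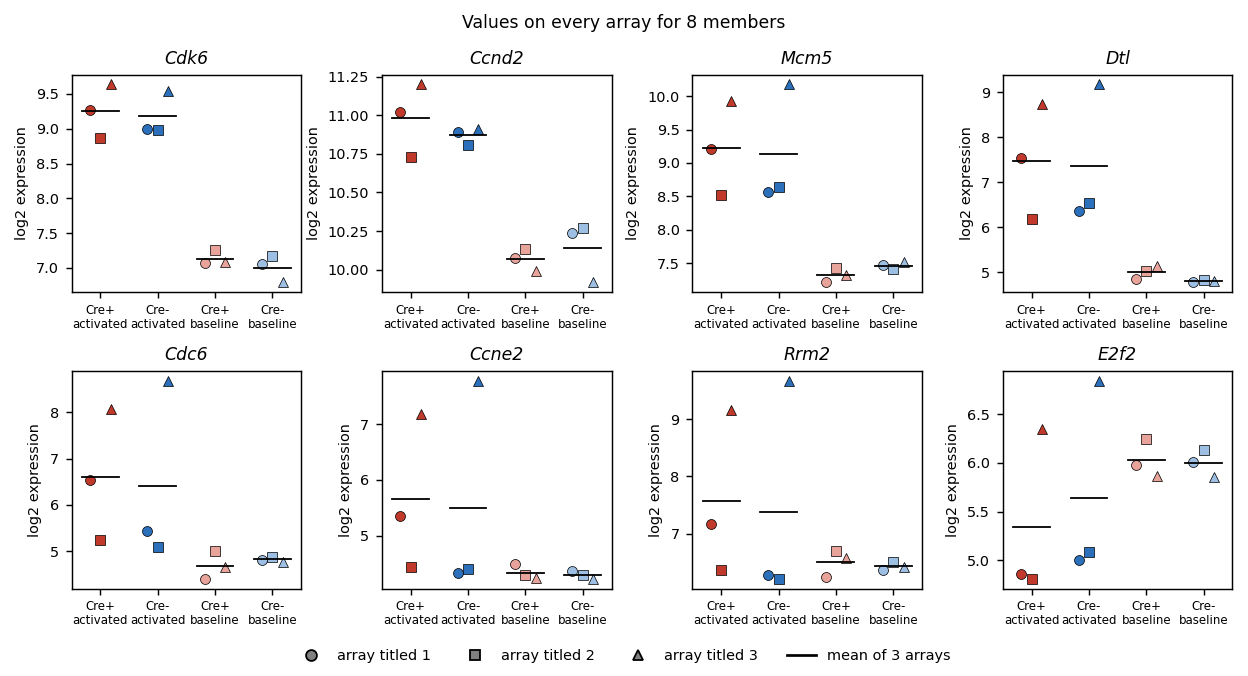
Log2 expression of 8 members on every array, by group, with a marker shape for the number in the array's title and a line at the mean of 3 arrays. Cdk6 and Ccnd2 were above baseline on all 6 activated arrays with little spread, Ccne2 and Rrm2 were high mainly on the arrays titled 3, and E2f2 was below baseline on arrays 1 and 2 and above it on arrays 3.

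None of the 4 genes that load the helicase passed in either genotype by limma, and 3 of them had an unadjusted p under 0.05 in each. In Cre+ cells Cdc6 read 6.53, 5.25 and 8.06 after activation, against 4.40, 5.01 and 4.67 at baseline. Cre- arrays gave 5.44, 5.10 and 8.68 after activation, against 4.82, 4.87 and 4.77 at baseline. Cdc6, the loading ATPase, was above baseline on all 6 activated arrays, narrowly on array 2 of each genotype and by the widest margin on both arrays titled 3. Its log2 change was 1.92 in Cre+ cells (SE 0.83, limma adjusted p = 0.138) and 1.58 in Cre- cells (SE 0.83, adjusted p = 0.240). Cdt1, which works with Cdc6, had smaller changes of 0.65 in Cre+ and 0.81 in Cre- cells (limma adjusted p = 0.142 and 0.0712). Orc6 read 7.45, 6.70 and 8.35 on Cre+ activated and 6.72, 6.63 and 8.69 on Cre- activated arrays, against 5.98 to 6.40 on baseline arrays. Orc1 read between 3.71 and 4.08 at baseline, near or under the median of all genes, and whether these values were above background was not tested. Both Orc genes are subunits of the origin recognition complex, and neither passed.

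All 6 Mcm subunits lay above baseline on every activated array in both genotypes. Mcm2, Mcm3, Mcm5 and Mcm6 passed in both, with log2 changes from 1.37 to 1.89 in Cre+ cells and from 1.35 to 1.67 in Cre- cells. In Cre+ cells Mcm5 read 9.20, 8.52 and 9.93 after activation, against 7.21, 7.44 and 7.33 at baseline. The Cre- values were 8.57, 8.64 and 10.17 after activation, against 7.47, 7.41 and 7.51 at baseline. For Mcm5 each group of activated arrays lay at least 1 log2 unit above its highest baseline value, with array 3 the highest. It rose by log2 1.89 in Cre+ cells (SE 0.40, limma adjusted p = 0.00604) and 1.67 in Cre- cells (SE 0.40, adjusted p = 0.0131).

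Mcm2 rose by log2 1.47 in Cre+ cells (SE 0.32, limma adjusted p = 0.00752) and 1.46 in Cre- cells (SE 0.32, adjusted p = 0.00859). Its activated values were 8.88, 8.06 and 9.40 in Cre+ and 8.50, 8.62 and 9.62 in Cre- cells, against 7.26 to 7.53 on the 6 baseline arrays. Mcm4 and Mcm7, the other two subunits of the ring, had log2 changes of 1.11 and 1.06 in Cre+ cells and 1.15 and 1.22 in Cre- cells and did not pass (limma adjusted p from 0.0613 to 0.122). A difference between the subunits that passed and those that did not was not tested.

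Of the 5 genes that turn the loaded ring into the fork helicase, Gins2 passed in both genotypes. Gins2, a GINS subunit, read 6.19, 5.27 and 7.13 on Cre+ activated arrays, against 4.42, 4.26 and 4.61 on Cre+ baseline arrays, and 5.32, 5.11 and 7.56 on Cre- activated arrays, against 4.11, 4.34 and 4.10 on Cre- baseline arrays. It rose by log2 1.77 in Cre+ cells (SE 0.57, limma adjusted p = 0.0470) and 1.81 in Cre- cells (SE 0.57, adjusted p = 0.0466). Most Gins2 baseline values lay near the median of all genes, and whether they were above background was not tested. Mcm10 and Cdc45, which help assemble the active helicase, lay above baseline on all activated arrays, highest on the arrays titled 3. They did not pass (limma adjusted p from 0.107 to 0.185). Gins1 had log2 changes of 2.18 in Cre+ and 1.96 in Cre- cells (limma adjusted p = 0.0645 and 0.103) from baseline values of 2.54 to 3.47, under the median of all genes, and whether these were above background was not tested. Gins3 overlapped baseline in both genotypes, with log2 changes of 0.26 in Cre+ and 0.35 in Cre- cells (limma adjusted p = 0.706 and 0.613).

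All 5 polymerase and primase genes lay above baseline on every activated array. Pole, the catalytic subunit of the leading strand polymerase, read 7.29, 6.54 and 8.54 on Cre+ activated arrays, against 5.24, 5.44 and 5.29 on Cre+ baseline arrays. In Cre- cells Pole read 6.56, 6.79 and 8.99 after activation, against 5.66, 5.31 and 5.44 at baseline. All activated arrays exceeded all baseline arrays. Pole rose by log2 2.13 in Cre+ cells (SE 0.58, limma adjusted p = 0.0220) and 1.97 in Cre- cells (SE 0.58, adjusted p = 0.0347). Prim1, the primase subunit that makes the RNA primer, rose by log2 1.77 in Cre+ cells (SE 0.52, limma adjusted p = 0.0317) and 1.64 in Cre- cells (SE 0.52, adjusted p = 0.0479). Pold1, the catalytic subunit of the lagging strand polymerase, rose by log2 0.87 in Cre+ and 0.92 in Cre- cells (limma adjusted p = 0.0419 and 0.0359). Pola2, a subunit of the priming polymerase, rose in Cre+ cells (log2 0.98, limma adjusted p = 0.0371) and had a log2 change of 0.91 in Cre- cells (adjusted p = 0.0533), while Pola1, its catalytic partner, passed in neither (adjusted p = 0.150 and 0.148).

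Pcna, the sliding clamp, read 11.04, 10.61 and 11.67 on Cre+ activated and 10.65, 10.60 and 12.0 on Cre- activated arrays, against 10.20 to 10.45 on the 6 baseline arrays. All activated arrays were above baseline, narrowly on Cre+ array 2 and Cre- arrays 1 and 2, and the change did not pass (log2 0.71 in Cre+ and 0.79 in Cre- cells, limma adjusted p = 0.179 and 0.141). Rfc4, a clamp loader subunit, rose in Cre- cells (log2 1.73, SE 0.49, limma adjusted p = 0.0298) and had a log2 change of 1.45 in Cre+ cells (adjusted p = 0.0568). Rfc3 and Rfc5, of the same loader, did not pass in either genotype. Rpa1, the large subunit of the single-strand binding complex, had log2 changes of 0.01 in Cre+ and -0.06 in Cre- cells (SE 0.26 each, limma adjusted p = 0.982 and 0.929), with activated arrays on both sides of baseline. Its partner Rpa2 had log2 changes of 0.66 and 0.82 and did not pass.

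Fen1, the nuclease that trims Okazaki fragments, rose in Cre+ cells (log2 1.48, SE 0.48, limma adjusted p = 0.0466) and missed the threshold in Cre- cells with the same size of change (log2 1.48, adjusted p = 0.0511). Lig1, the ligase that seals them, lay above baseline on every activated array and did not pass (log2 1.30 in Cre+ and 1.33 in Cre- cells).

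Among the genes of nucleotide supply and uracil removal, Ung was the member that passed. Ung, the glycosylase that removes uracil from DNA, read 6.93, 6.23 and 7.63 on Cre+ activated arrays, against 4.91, 4.83 and 5.11 on Cre+ baseline arrays. In Cre- cells Ung read 6.46, 6.45 and 8.0 after activation, against 5.37, 5.10 and 5.13 at baseline. Each activated array exceeded every baseline array of its genotype by over 1 log2 unit. Ung rose by log2 1.98 in Cre+ cells (SE 0.40, limma adjusted p = 0.00474) and 1.77 in Cre- cells (SE 0.40, adjusted p = 0.00952).

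Rrm2, the regulated subunit of ribonucleotide reductase, which makes deoxyribonucleotides, behaved differently on arrays 1 and 2. In Cre+ cells Rrm2 read 7.17, 6.37 and 9.16 after activation, against 6.24, 6.70 and 6.58 at baseline. In Cre- cells the activated values were 6.28, 6.21 and 9.67, against 6.37, 6.51 and 6.43 at baseline. Cre+ activated array 2 and Cre- activated arrays 1 and 2 lay within or below the baseline range, and both arrays titled 3 lay far above it. Its log2 change was 1.06 in Cre+ cells (SE 0.84, limma adjusted p = 0.450) and 0.95 in Cre- cells (SE 0.84, adjusted p = 0.529). Rrm1, the large subunit, lay above baseline on every activated array (log2 1.19 in Cre+ and 1.13 in Cre- cells, limma adjusted p = 0.169 and 0.203), and Tk1, the thymidine kinase of salvage, overlapped baseline (log2 0.60 and 0.63, adjusted p = 0.338 and 0.327).

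Dtl, the substrate receptor of a ubiquitin ligase that removes Cdt1 during S phase, had the largest log2 change of the 47 members in both genotypes with all arrays. In Cre+ cells Dtl read 7.53, 6.18 and 8.74 after activation, against 4.84, 5.03 and 5.13 at baseline. On Cre- arrays it read 6.37, 6.55 and 9.17 after activation, against 4.77, 4.83 and 4.81 at baseline. All activated arrays exceeded all baseline arrays, array 3 by the widest margin in both genotypes. Dtl rose 5.58-fold in Cre+ cells (log2 2.48, SE 0.69, limma adjusted p = 0.0254) and 5.90-fold in Cre- cells (log2 2.56, SE 0.69, adjusted p = 0.0240). Without both activated arrays titled 3, the fold was 3.61 in Cre+ and 3.15 in Cre- cells, and Cdk6 then had the largest change of the 47 (3.83-fold in Cre+ and 3.96-fold in Cre- cells). Clspn, the adaptor of the checkpoint kinase at stalled forks, lay near the array median at baseline and on activated Cre+ array 2 and Cre- arrays 1 and 2, and read 6.95 and 7.35 on the Cre+ and Cre- arrays titled 3. Its change did not pass (limma adjusted p = 0.292 in Cre+ and 0.369 in Cre- cells). Uhrf1, which guides maintenance of DNA methylation behind the fork, rose in Cre+ cells (log2 2.01, SE 0.65, limma adjusted p = 0.0471) and had a log2 change of 1.77 in Cre- cells (adjusted p = 0.0823). Chaf1a and Chaf1b encode subunits of the histone chaperone CAF-1. Chaf1a had log2 changes of 1.78 in Cre+ and 1.97 in Cre- cells and Chaf1b of 0.39 and 0.80, and neither passed.

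Other genes of the same processes were counted from lists of their own. Of 26 other replication factors, 9 rose and 0 fell in Cre+ cells, and 6 rose and 0 fell in Cre- cells, with median log2 changes of 0.79 and 0.75. Of those that passed in Cre- cells, the largest changes there were those of Tipin, of the fork protection complex (log2 1.83 in Cre+ and 2.07 in Cre- cells), Pold2, a subunit of the lagging strand polymerase (1.21 and 1.32), and Orc2, of the origin recognition complex (1.02 and 1.12). Of 10 other genes of nucleotide supply, 5 rose in each genotype, among them Shmt1, a serine hydroxymethyltransferase of folate metabolism (log2 2.72 in Cre+ and 2.84 in Cre- cells), and Cad and Umps, of pyrimidine synthesis. In Cre+ cells 2 of this list fell, Dck, the kinase of deoxycytidine salvage (log2 -1.0), and Rrm2b, the p53-inducible reductase subunit (log2 -0.94), whose changes in Cre- cells were -0.45 and -0.75 and did not pass. Of 8 other genes of chromatin duplication, 4 rose in Cre+ cells and 5 in Cre- cells, led in Cre- cells by the remodeller Hells (2.03).

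Genes around the retinoblastoma pathway and the kinase inhibitors moved in both directions. Of 10 genes of the RB family and other E2F and DP factors, 4 rose and 1 fell in Cre+ cells, and 5 rose and 1 fell in Cre- cells. Tfdp1, the DNA-binding partner of E2F proteins, rose by log2 1.65 in Cre+ and 1.56 in Cre- cells, and Rbl2, the p130 pocket protein of resting cells, fell (log2 -1.30 and -1.04). Of 7 inhibitors of cyclin-dependent kinases, Cdkn1a, encoding p21, read 9.37, 8.90 and 9.46 on Cre+ activated and 7.45, 8.08 and 8.56 on Cre- activated arrays, against 4.59 to 4.82 on Cre+ baseline and 4.11 to 4.62 on Cre- baseline arrays. It rose in both genotypes (log2 4.55 in Cre+ cells, limma adjusted p = 5.4e-07, and 3.65 in Cre- cells, adjusted p = 3.2e-06). All Cre+ activated arrays lay above all Cre- activated arrays for Cdkn1a, a log2 difference of 1.22 (SE 0.25) that missed the threshold (limma adjusted p = 0.0544). Cdkn2d, encoding p19, fell in both (log2 -1.08 in Cre+ and -1.03 in Cre- cells). Of 7 other G1/S kinases and cyclins, 0 rose and 1 fell in Cre+ cells, and 2 rose and 1 fell in Cre- cells, with 6 of the 7 changes positive in each. Those that rose were Ccnh (log2 1.01) and Cdk7 (0.38), cyclin and kinase of the complex that activates cyclin-dependent kinases. Ccnd1, the D-type cyclin not counted among the 47, was the gene that fell (log2 -1.62 in Cre+ and -1.75 in Cre- cells), to activated values of 3.90 to 4.59, near the array medians.

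Cdkn1b, encoding p27, the inhibitor typical of resting T cells, followed the activated arrays in the order opposite to the members. It read 7.16, 8.31 and 6.04 on Cre+ activated and 8.39, 7.98 and 5.99 on Cre- activated arrays, against 8.60 to 8.70 on Cre+ baseline and 8.45 to 8.57 on Cre- baseline arrays. Both arrays titled 3 were the lowest and Cre+ activated array 2 and Cre- activated array 1 were close to baseline. The change did not pass (log2 -1.48 in Cre+ cells, limma adjusted p = 0.104, and -1.05 in Cre- cells, adjusted p = 0.274).

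Genes of mitosis, which follow S phase, separated the arrays further. None of 23 measured mitosis genes passed in either genotype by limma, and 0 in Cre+ and 0 in Cre- cells had an unadjusted p under 0.05, with median log2 changes of 0.60 and 0.65 in Cre+ and Cre- cells. Their mean level was 5.94, 5.37 and 7.59 on Cre+ activated arrays and 5.40, 5.38 and 7.99 on Cre- activated arrays, against 5.50, 5.73 and 5.68 on Cre+ baseline and 5.64, 5.70 and 5.53 on Cre- baseline arrays. All 23 lay above every baseline array of their genotype on both arrays titled 3 (33.01% of all genes in Cre+ and 33.12% in Cre- cells). On Cre+ activated array 1, 14 of 23 did (30.7% of all genes). On Cre+ activated array 2 and Cre- activated arrays 1 and 2 the mitosis genes above every baseline array numbered 2, 2 and 3. The shares of all genes were 32.96%, 35.83% and 30.54%. Mitosis genes below every baseline array numbered 17, 12 and 14 there (32.09%, 28.6% and 33.99% of all genes). On those same 3 arrays 36, 39 and 39 of the 47 members lay above every baseline array, and 5, 5 and 5 lay below.

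Genes of T cell activation rose on all activated arrays when averaged, while single genes ordered those arrays in different ways. Of 10 such genes, 9 rose in Cre+ cells and 10 in Cre- cells, and their mean level was 9.63, 9.50 and 9.58 on Cre+ activated arrays and 9.26, 9.31 and 9.62 on Cre- activated arrays, against 7.23, 7.29 and 7.26 and 7.05, 7.12 and 7.03 on Cre+ and Cre- baseline arrays. Array 3 was the highest in both genotypes for 3 of them (Il2ra, Myc and Tfrc) and the lowest in both for 3 (Irf4, Tnfrsf9 and Nfkbid). Tfrc, the transferrin receptor, read 8.59, 8.37 and 9.43 on Cre+ activated and 8.42, 8.44 and 9.99 on Cre- activated arrays, whereas Nfkbid, an IkB family protein, read 8.89, 9.27 and 8.21 and 9.21, 9.24 and 9.04. These genes were named after their values were seen. The 13 B cell markers averaged 6.96, 6.13 and 7.49 on Cre+ activated and 5.50, 5.96 and 6.79 on Cre- activated arrays, against 8.36, 8.46 and 8.46 on Cre+ baseline and 8.81, 8.52 and 8.64 on Cre- baseline arrays. Their activated values followed the same order of arrays as the members in each genotype, highest on array 3, while their baseline values, where the members were low, were higher still. The lowest value of a B cell marker on any array was 3.24, none of the 13 being at 0, and their part in the results on the members was not tested.

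**Figure D4:**
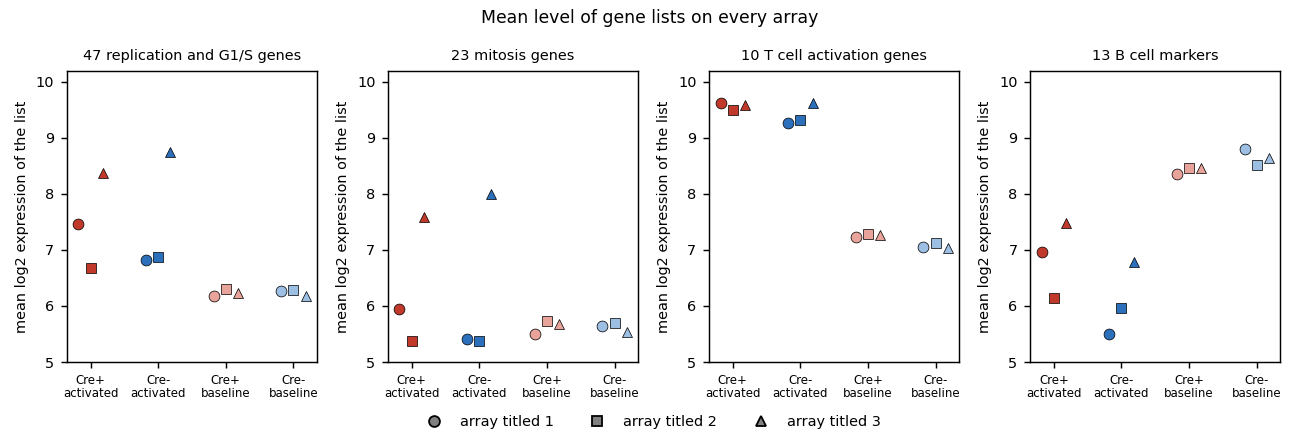
Mean log2 expression on every array of the 47 members, 23 mitosis genes, 10 T cell activation genes and 13 B cell markers, with a marker shape for the number in the array's title. The arrays titled 3 stood above the other activated arrays for the members, mitosis genes and B cell markers, while the mean of the T cell activation genes lay between 9.26 and 9.63 on all 6 activated arrays.

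After activation, no difference between Cre+ and Cre- cells passed in these genes with all arrays weighted equally. By limma, 0 of 47 members were higher and 0 lower in Cre+ cells, where 0.630% of all genes were higher and 0.0992% lower, and 0 members had an unadjusted p under 0.05. The 3 Cre+ and 3 Cre- arrays overlapped for all 47, whereas one group lay fully above the other in 5.25% and below it in 5.51% of all genes. Log2 differences ran from -0.32 to 0.46 with a median of 0.01, and 26 of 47 were positive. Both the sign and the size turned on single activated arrays. Without the Cre- array titled 3 all 47 differences were positive (median 0.61), and without the Cre+ array titled 3 only 2 were (median -0.43). Leaving out Cre- activated array 1 or 2 gave 3 positive differences each (medians -0.32 and -0.29). In the absence of Cre+ activated array 2 there were 44 (median 0.39). Without both arrays titled 3, 42 were positive, the median was 0.19, the differences ran from -0.23 for Rpa1 to 0.72 for Rfc3, and 0 members passed. With array weights, which let noisier arrays count less, 44 were positive (median 0.51) and Rfc3 was higher in Cre+ cells (log2 1.08, SE 0.24, limma adjusted p = 0.0162), where 5.19% of all genes were higher and 5.23% lower. With all arrays the 4 largest were those of Rfc3 (0.46, 95% interval -0.61 to 1.53), Pola2 (-0.32, -0.97 to 0.33), E2f2 (-0.31, -1.34 to 0.73) and Gins1 (-0.28, -1.94 to 1.39). The interval held a 2-fold difference in both directions for 21 of 47 members and in at least 1 direction for 30, so the absence of calls does not show equal levels. The tightest intervals were those of the D-type cyclins and their kinases, such as -0.18 to 0.41 for Ccnd2 and -0.36 to 0.52 for Cdk6.

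Within the activated arrays the genotypes crossed. Cre+ activated array 1 exceeded both Cre- activated arrays 1 and 2 in 44 members, the exceptions being Pola2, Rpa1 and E2f2. Cre+ activated array 2 was below both of those Cre- arrays in 33 members. Cre- activated array 3 exceeded Cre+ activated array 3 in 44 members, the exceptions being Ccnd2, Ccnd3 and Cdk6.

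At baseline the arrays were far closer together, and again 0 of 47 members were higher and 0 lower in Cre+ cells by limma, where 0.492% of all genes were higher and 0.0604% lower. No member had an unadjusted p under 0.05. The Cre+ arrays lay fully above the Cre- arrays for 4 members, Rfc3, Chaf1a, Chaf1b and Dtl (8.82% of all genes), and fully below for 4, Mcm3, Pola2, Rpa1 and Ccne1 (7.42% of all genes), which is near the share of all genes. Chaf1b read 6.96, 6.96 and 6.70 on Cre+ baseline arrays, against 6.62, 6.43 and 6.17 on Cre- baseline arrays, a log2 difference of 0.47 (95% interval -0.72 to 1.66). Rfc3 read 5.08, 5.27 and 5.31 in Cre+ cells, against 4.77, 4.75 and 4.82 in Cre- cells (0.44, -0.63 to 1.51). Ccne1 read 5.23, 5.50 and 5.32 in Cre+ cells, against 5.64, 5.85 and 5.76 in Cre- cells (-0.40, -1.61 to 0.82). Gins1 had the largest difference of the 47 (-0.50, -2.17 to 1.16), with overlapping arrays and values under the median of all genes.

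These intervals carry the spread of the activated arrays, which the fit shares over all groups. A fit on the 6 baseline arrays alone gave narrower ones, such as 0.22 to 0.67 for Rfc3 and -0.61 to -0.16 for Pola2. In that fit 7 of 47 members (14.9%) had an unadjusted p under 0.05, against 10.4% of all genes, and 0 passed after adjustment, the smallest limma adjusted p being 0.102 for Rfc3.

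**Figure D5:**
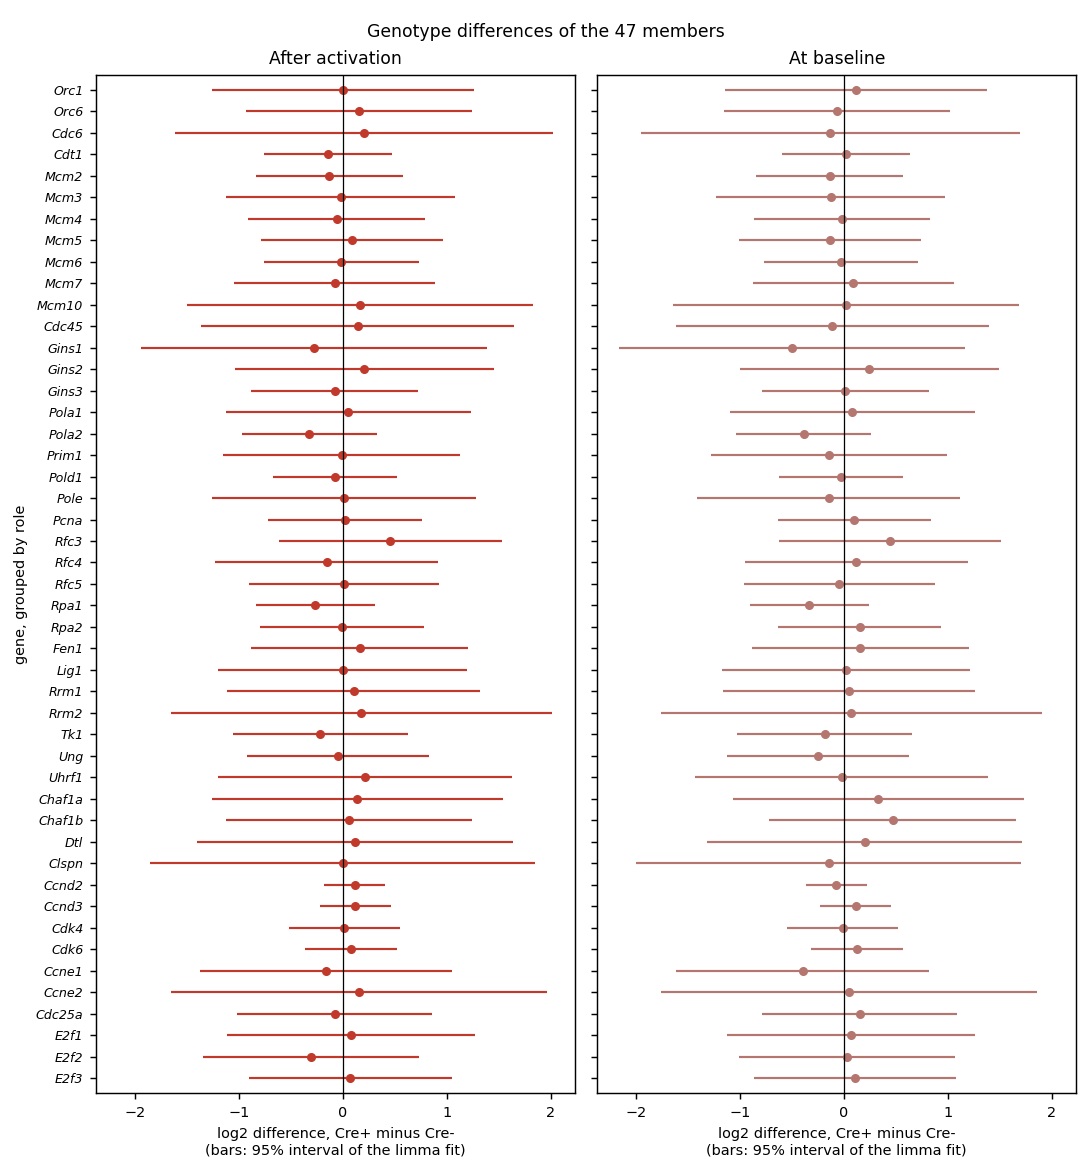
Log2 difference between Cre+ and Cre- cells for the 47 members after activation (left) and at baseline (right), with 95% intervals of the limma fit on all 12 arrays. All intervals include 0, and the points run from -0.32 to 0.46 after activation and from -0.50 to 0.47 at baseline.

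The responses to activation themselves did not differ detectably between genotypes. By limma, 0 of 47 members passed in the difference of responses (activation change in Cre+ cells minus that in Cre- cells), where 0.00863% of all genes were higher and 0% lower, and 0 had an unadjusted p under 0.05. The differences ran from -0.41 for Chaf1b (95% interval -2.09 to 1.27) to 0.33 for Cdc6 (-2.25 to 2.91), with -0.33 for E2f2 (-1.80 to 1.13) and -0.27 for Rfc4 (-1.79 to 1.25) the next in size. A difference in response of 2-fold lay inside the interval for each of these 4. Of the 47 differences 27 were positive with all arrays. Without the Cre- activated array titled 3 the number was 47, without the Cre+ one 1, and without both 39 (median 0.20, against 0.02 with all arrays). With array weights it was 46 (median 0.54), and the median activation change of the members was then 1.25 in Cre+ and 0.75 in Cre- cells.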

How the data were processed

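RNA of 12 samples was hybridised to whole-transcript arrays. The deposited values are log2 expression, 1 value per probe set, made with RMA (affy 1.36.1, R 2.15.1), per the submitters' processing notes. No source used here names the chip definition or a genome build for the arrays. Of 25206 probe sets, 23185 paired with exactly 1 gene symbol and were tested, and the 2021 that did not were left out. No filter was set on dim genes, and the number of arrays limits the precision.

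Groups came from the labels. All 12 arrays entered 1 model in limma 3.58.1 under R 4.3.3, with the group means as its terms and no covariate, for 5 comparisons: activation in each genotype, genotype after activation, genotype at baseline, and the difference of responses. The fit had 8 residual degrees of freedom and a prior of 3.55. A gene passed when its two-sided p, adjusted by Benjamini-Hochberg over 23185 genes, was under 0.05. SE values are the moderated ones. The model was tested on simulated data.

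Members, gene lists and tests were chosen with earlier results of these data known. All 47 members could be named, in the genotype comparisons with the 4 largest differences. Of other lists, up to 3 genes per list and direction that passed were named by size of change in Cre- cells, and kinase inhibitors at any value. Of 154 genes on 14 further lists, 144 were measured and the others are not analysed here. The lists of CD8 T cells, NK cells and erythroid cells held 2, 4 and 2 measured genes, of which 0, 1 and 0 rose and 0, 2 and 0 fell in Cre+ cells and 0, 0 and 0 rose and 0, 3 and 0 fell in Cre- cells. The alternatives were array weights, a robust fit with a variance trend, a block for the replicate number, a minimum mean of 5, all probe sets, median centring, quantile normalization, the 75th percentile, only the arrays compared, no activated arrays titled 3, and each array left out in turn.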

Additional observations from a re-analysis of the deposited data

How the results depend on the processing

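Of the 14 members that rose in both genotypes, Mcm2, Mcm5, Ung, Ccnd2, Cdk4 and Cdk6 kept the call in both under all 22 alternatives, and each of the other 8 lost it in at least 1 genotype under 1 to 9 of them. The number of members higher in Cre+ cells was 17 with all arrays and 38 with array weights (17.2% of all genes). It was 34 without both activated arrays titled 3 (10.6% of all genes) and ran from 6 to 36 when 1 array was left out. In Cre- cells, 16 with all arrays, it was 9 in a fit on the 6 arrays compared and ran from 6 to 24 when 1 array was left out. With array weights 1 member was lower in Cre+ cells (E2f2, log2 -1.01) and 1 in Cre- cells (Ccnd3, -0.32). In that fit 18.5% of all genes were lower in Cre+ and 12.4% in Cre- cells. After activation it gave 1 member higher in Cre+ than in Cre- cells (Rfc3, 1.08), where 5.19% of all genes were higher. Without both arrays titled 3, 1 member (E2f2) was lower in each genotype. The counts of lower members in activation and of members in the genotype comparisons and the difference of responses stayed at 0 under every array left out.

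Arrays that share a number were not shown to be paired: the correlation of their deviations from the group means ran from -0.09 to 0.73, and no pair of groups had all of its values over 0.1. With the replicate number as a block, 23 members were higher in Cre+ cells and 22 in Cre- cells. Shares of all genes are not given here for that fit, the fit on only the arrays compared or the fits with 1 array left out.

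Signs are given for all 47 members in activation and for the 4 largest in each other comparison, and those that changed belonged to comparisons in which the member did not pass. Over all 47, without both arrays titled 3, the sign changed for 3 members in activation of Cre+ cells, 2 in Cre- cells, 16 in genotype after activation and 14 in the difference of responses. With 1 array left out in turn it changed at least once for 4, 3, 45 and 46 of them, and for 19 in genotype at baseline. With array weights the sign changed in activation for Rpa1 (-0.0349) in Cre+ cells and for Gins3 (-0.0906) and Rrm2 (-0.00655) in Cre- cells. Of the 4 largest, it changed for Gins1 (0.64) in genotype after activation, and for Chaf1b (0.17) and Rfc4 (0.33) in the difference of responses. Over all 47 in that fit, 44 differences were positive in genotype after activation and 46 in the difference of responses. With equal weights these numbers were 26 and 27. Rpa1 was 0.0207 in Cre- cells with median centring and -0.0524 in Cre+ cells with quantile normalization. Without both arrays titled 3, Gins3 (-0.0372), Rpa1 (-0.25) and Chaf1b (-0.10) turned in Cre+ cells, Gins3 (-0.17) and Rrm2 (-0.19) in Cre- cells, and, of the 4 largest, Gins1 (0.0943) in genotype after activation. With 1 array left out, the ranges that crossed 0 were, in Cre+ cells, -0.0372 to 0.47 for Gins3, -0.25 to 0.24 for Rpa1, -0.10 to 0.83 for Chaf1b and -0.29 to 0.00717 for Ccnd3. In Cre- cells they were -0.17 to 0.62 for Gins3, -0.19 to 1.54 for Rrm2 and -0.36 to 0.10 for Rpa1. After activation between genotypes, of the 4 largest, they were -0.90 to 0.72 for Gins1, -0.59 to 0.0551 for Pola2 and -0.81 to 0.29 for E2f2. In the difference of responses, of the 4 largest, they were -0.90 to 0.31 for Chaf1b, -0.84 to 0.26 for E2f2, -0.39 to 1.47 for Cdc6 and -0.68 to 0.34 for Rfc4. The causes were not tested.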
